A study of Rattus norvegicus with 8 samples.

Results

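The proteasome genes were examined in the liver of male Wistar rats fed a control diet with 0.3% phosphorus or a high-phosphorus (HP) diet with 1.2% phosphorus. The genes were those whose only symbol on the array began with Psm, a letter from a to g and a digit. Of 14218 genes with a single symbol, 46 matched, on 60 probe sets. For each gene the brightest probe set that spanned at least 0.05 (log2) over the 8 rats was used, which left 29 measured genes (63.0%, against 19.7% of all genes, 2808 of 14218). The other 17 were constant on the array and gave no measure of a difference. The measured genes comprised 9 of 13 core subunits, 14 of 17 regulatory subunits, 2 of 5 immune subunits, 1 inhibitor and 3 of 7 assembly chaperones. Psmc3ip and Psme3ip1 matched by their letters only, are no proteasome subunits, and were constant. A further 6 probe sets listed several symbols, among them those of Psmb6 and Psme3, and were not named.

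The rats came at 4 weeks of age, were acclimatized for 7 days and then ate either diet, both based on AIN-93G, for 24 days. They were 8 weeks old when sampled. The study kept 5 rats on each diet, and 4 of each were arrayed, with 1 array per rat. Each replicate is therefore a separate animal, and no rat carried a genetic change or a drug. Levels are log2 values of Affymetrix probe sets and cannot be compared between genes. In whole liver, fewer cells of a type and less RNA per cell cannot be told apart.

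The proteasome breaks down proteins that carry chains of ubiquitin. Its core particle is a barrel of α and β rings with the cutting sites inside. The regulatory particle sits on the ends of the barrel, where its ATPases unfold the protein and its non-ATPase subunits recognise the ubiquitin chain and take it off. Interferon-γ brings in immune subunits, which replace the cutting subunits or cap the core and favour peptides for display on MHC class I. In liver the proteasome works beside autophagy in the turnover of enzymes.

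Across the series the arrays had medians of 6.65 over all 31099 probe sets. Most of these spanned less than 0.05, so that such medians could differ little. Over the 4155 probe sets that spanned at least 0.05, the medians ran from 8.76 to 8.81 and pairwise Pearson's r from 0.968 to 0.992. Rank products, the ranking method of the study with a permutation FDR under 0.05, called 502 probe sets lower and 353 higher on the HP diet. The limma linear model called 0 at an adjusted p under 0.05, its smallest adjusted p being 0.156.

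The regulatory subunits had lower values on the HP diet by a small margin, and the core subunits lay nearer to the rest of the genes. These are descriptions of the groups, and the difference between core and regulatory subunits was not tested. The difference, HP minus control, was negative for 14 of 14 regulatory subunits, with a median of -0.12 (log2), or 91.8% of the control level. It was negative for 6 of 9 core subunits, with a median of -0.04, and for 2 of 2 immune subunits, with a median of -0.04. Over all 2808 genes it was negative for 54.7%, with a median of -0.01. Most single subunits did not pass a test. Rank products called 2 of 29 members lower, against 9.86% of all genes, and 0 higher, against 8.48%. When ranked over the probe sets that span at least 0.05 alone, it called 0 members. At a limma adjusted p under 0.05, 0 of 29 members were called, against 0.0% of all genes, and the members' adjusted p ranged from 0.280 to 0.973. At an unadjusted limma p under 0.05, 3 members were lower, against 6.3% of all genes, and 0 higher, against 5.77%. The share of members called was thus no larger by rank products than that of all genes. For 2 members the highest HP value was under the lowest control value, against 3.53% of all genes, and for 0 members the lowest HP value was over the highest control value, against 3.6%.

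**Figure D1:**
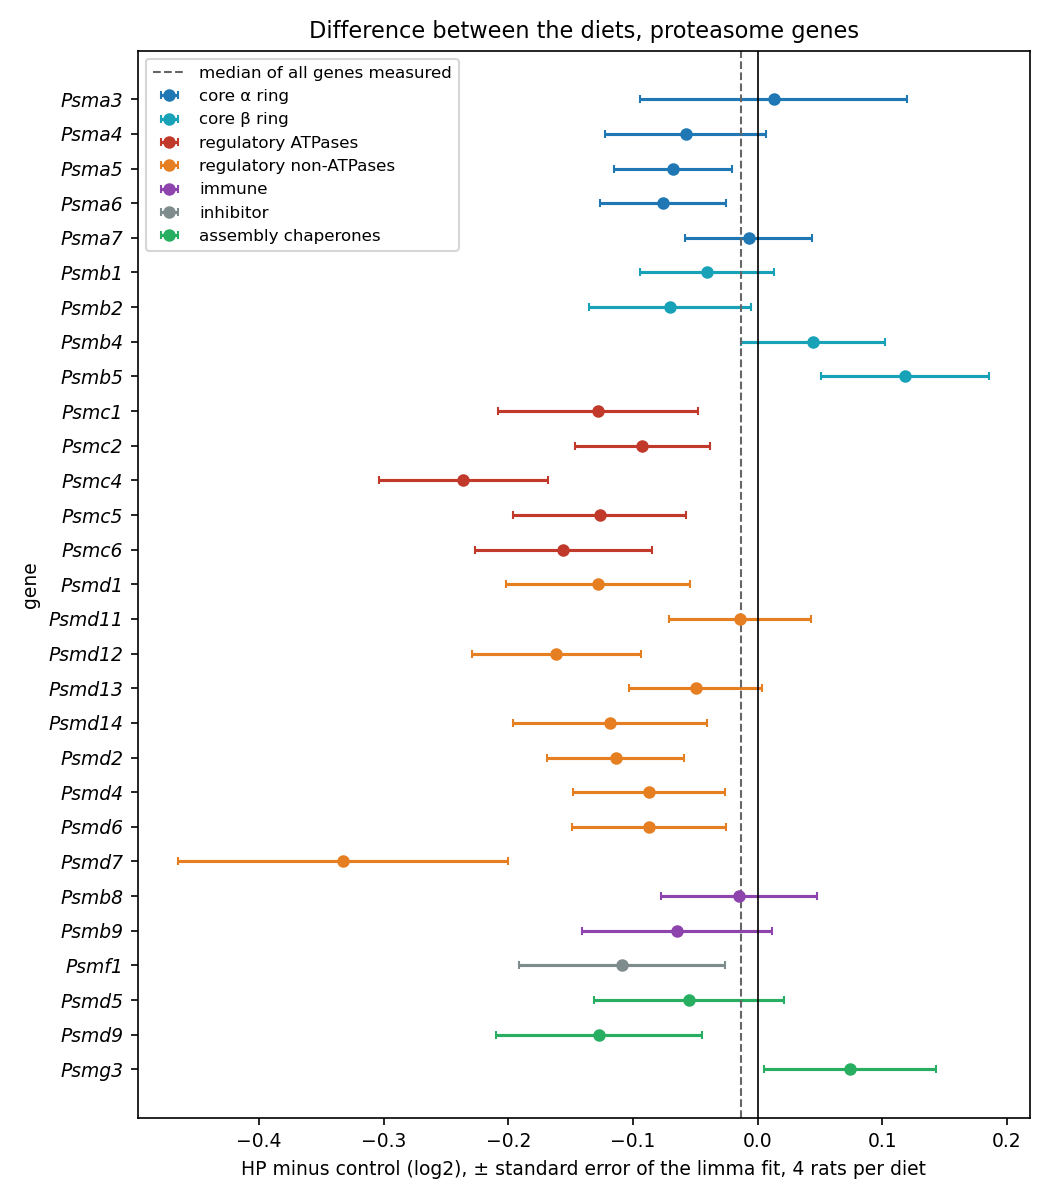
The difference between the diets (HP minus control, log2) for the 29 measured proteasome genes, with bars of 1 standard error of the limma fit over 4 rats per diet, coloured by group. All 14 regulatory subunits lie left of 0, from -0.33 for Psmd7 to -0.01 for Psmd11, whereas the 9 core subunits run from -0.08 to 0.12. The dashed line is the median of all 2808 genes, -0.01.

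Control rat 3 held the highest value of all 14 regulatory subunits, which was so for 21.4% of all genes and for 5 of 9 core subunits. The regulatory median and many of the differences are therefore given without it too. A difference that is given only once includes control rat 3 and may depend on it. Without control rat 3, 13 of 14 regulatory differences were negative, Psmd11 being the exception. Their median was then -0.07, or 95.1% of the control level, against -0.01 over all genes, of which 52.3% were negative. No member was called by rank products without it, and Psmc4 and Psmd7 still passed limma at an unadjusted p under 0.05. The share of all genes at that limma p was not computed without that rat. Rank products over all genes called 33 lower without that rat, against 277 with it. With another control rat left out, it called 43 to 127.

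**Figure D2:**
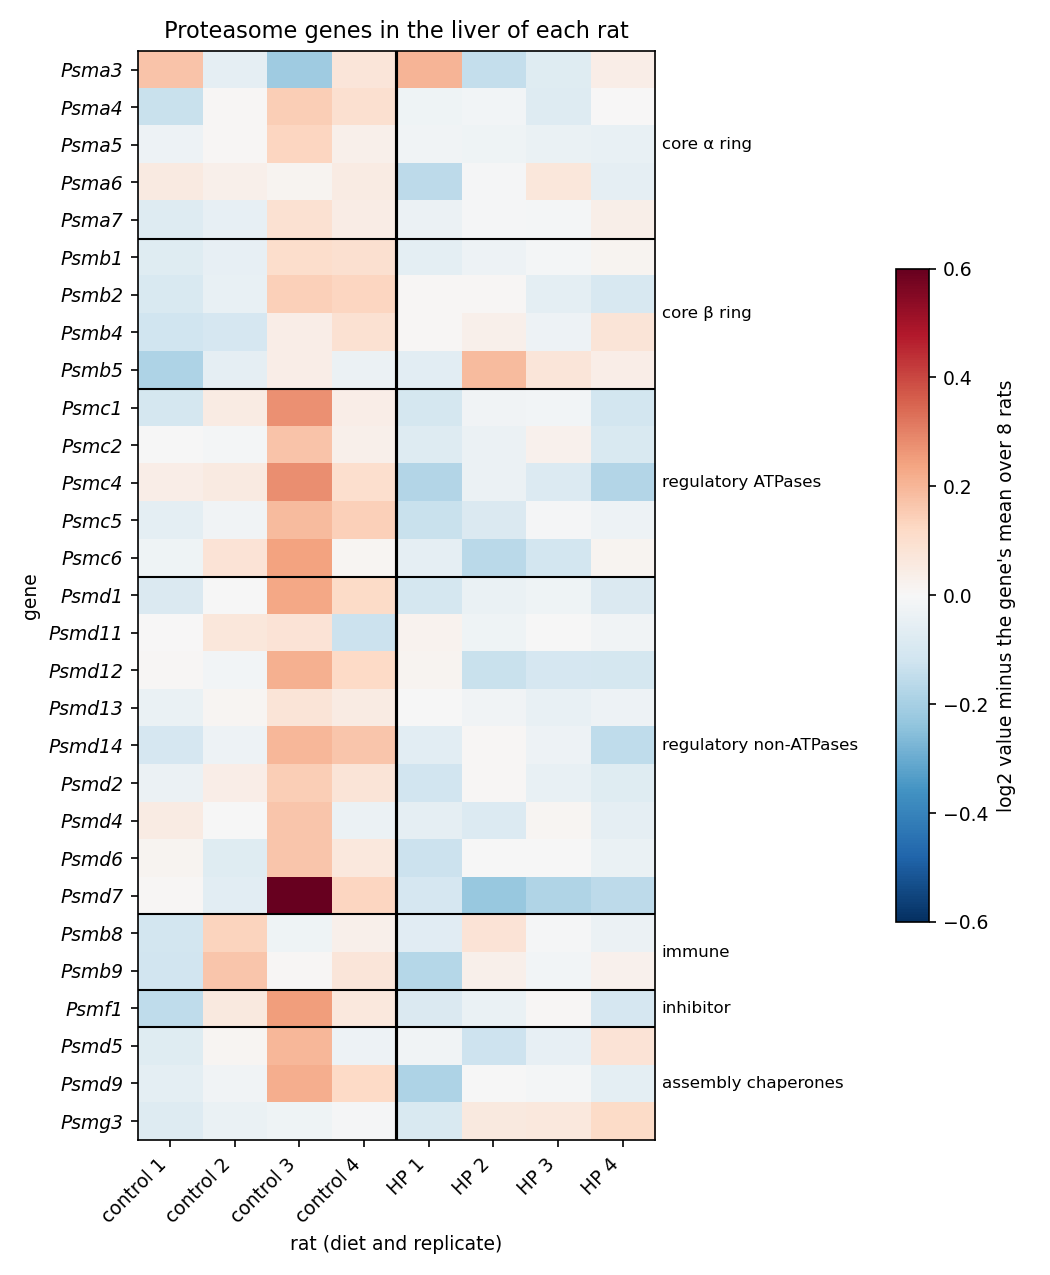
Each of the 29 measured proteasome genes in each of the 8 rats, as the log2 value minus the gene's mean over the rats (red above, blue below, scale from -0.6 to 0.6). The column of control rat 3 is red for all 14 regulatory subunits, and the 4 HP columns are mostly blue there.

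Among the ATPases, 5 of 6 were measured and 1, Psmc4, was called. The ATPases form the ring that unfolds a substrate and feeds it into the core. Psmc4 stood at 9.82, 9.83, 10.05 and 9.87 in control rats 1 to 4 and at 9.60, 9.74, 9.69 and 9.60 in HP rats 1 to 4. Every HP rat lay below every control rat. Its difference was -0.24 (log2, SE 0.07), or 84.9% of the control level, with a rank products FDR of 0.0211 from permutations, a limma p of 0.00700 and a limma adjusted p of 0.280. Without control rat 3 it was -0.18 (SE 0.06, limma p 0.0136, limma adjusted p 0.509). With any 1 of the control rats left out, rank products no longer called Psmc4, while its difference without control rats 1, 2 and 4 was -0.26, -0.26 and -0.24. Psmc6, the next by size, read 9.71, 9.82, 9.98 and 9.75 on the control diet and 9.69, 9.58, 9.63 and 9.75 on the HP diet. In 3 of 4 HP rats it was under the lowest control rat. Its difference was -0.16 (SE 0.07, limma adjusted p 0.399), or -0.10 without control rat 3, and its other 2 measured probe sets gave -0.22 and -0.12. Psmc1, Psmc2 and Psmc5 had differences of -0.13, -0.09 and -0.13 and overlapped between the diets. Without control rat 3 these differences were -0.06, -0.05 and -0.08. Psmc3 was constant.

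The non-ATPase subunits held the largest difference of the proteasome genes. Psmd7, a lid subunit that pairs with the deubiquitinase Psmd14, stood at 8.91, 8.84, 9.50 and 9.04 on the control diet and at 8.81, 8.68, 8.73 and 8.75 on the HP diet. The diets did not overlap, although the nearest rats, control 2 and HP 1, were only slightly apart and control rat 3 stood well above the others. The difference was -0.33 (SE 0.13), or 79.4% of the control level, with a rank products FDR of 0.00901 from permutations, a limma p of 0.0336 and a limma adjusted p of 0.372. Without control rat 3 it was -0.19 (SE 0.07, limma p 0.0254, limma adjusted p 0.598), and rank products did not call it, whereas it did with any other rat left out. The unadjusted limma p of Psmd7 was 0.05 or over in 5 of 16 alternatives and that of Psmc4 in 0 of 16. A second probe set of Psmd7 was constant, at 9.41. Psmd12, a scaffold subunit of the lid, read 9.22, 9.20, 9.43 and 9.33 on the control diet and 9.23, 9.08, 9.12 and 9.11 on the HP diet. HP rat 1 lay among the control rats and the other 3 HP rats under them. Its difference was -0.16 (SE 0.07), with a limma p of 0.0410, a limma adjusted p of 0.384 and a rank products FDR of 0.0757 from permutations. The unadjusted limma p was 0.05 or over in 9 of 16 alternatives, among them that without control rat 3 (-0.12, p 0.104), both other scalings (0.0509 and 0.0551) and the replicate block (0.0681). The remaining 7 measured subunits of this group overlapped between the diets. Psmd1 and Psmd2, the large scaffolds that dock ubiquitin carriers, had differences of -0.13 and -0.11, or -0.07 and -0.08 without control rat 3. Psmd4, a receptor for ubiquitin chains, had -0.09, or -0.05 without that rat. For Psmd14, which removes the chains as the substrate enters, it was -0.12 at the brightest probe set, or -0.07 without control rat 3. At a dimmer probe set of Psmd14 it was -0.26, which rank products called lower. The lid scaffolds Psmd6, Psmd13 and Psmd11 had -0.09, -0.05 and -0.01, or -0.05, -0.03 and 0.01 without control rat 3. Psmd3 and Psmd8 were constant. The threshold fell between Psma1, which spanned 0.00482 (log2) over the rats, and Psmd13, which spanned 0.123.

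**Figure D3:**
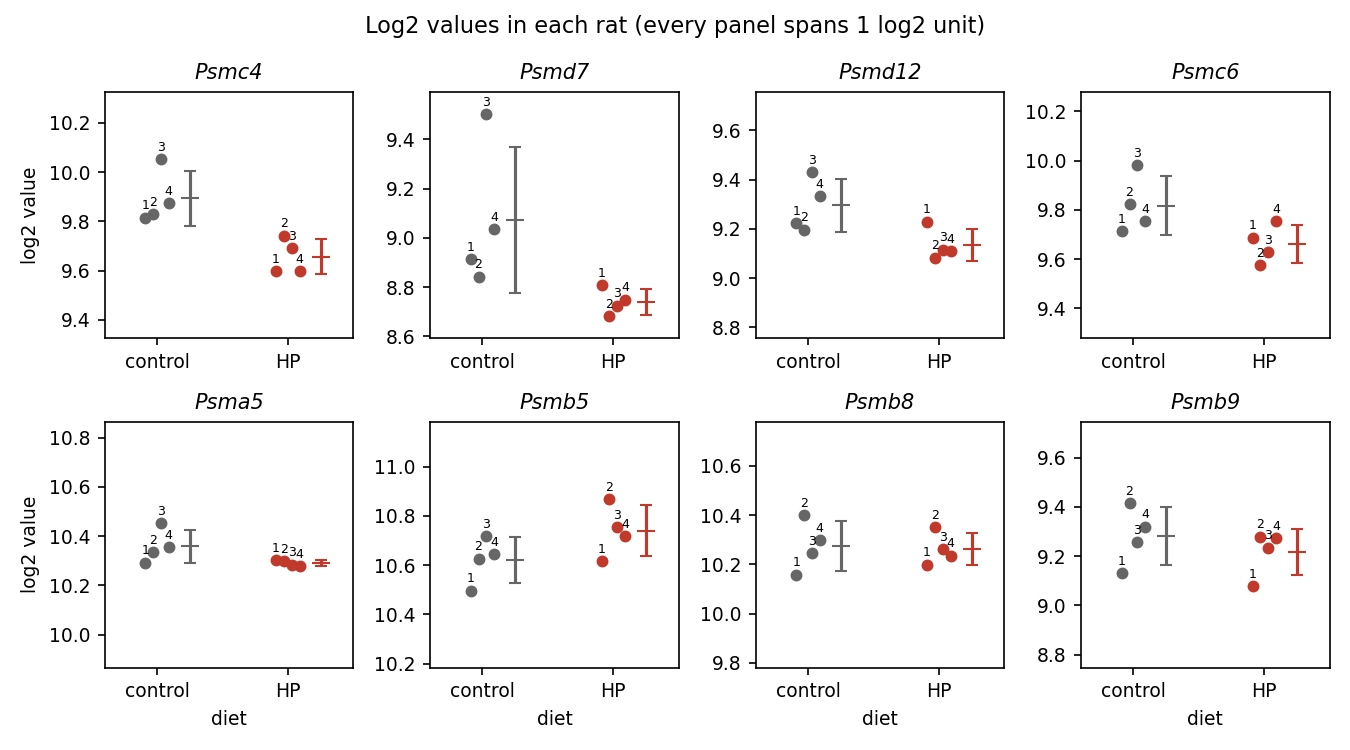
Log2 values of 8 proteasome genes in each rat, with the replicate number beside each point and the mean and 1 SD of 4 rats at its right. Each panel has its own axis of 1 log2 unit, which does not start at 0. The diets do not overlap for Psmc4 and Psmd7, which differ by -0.24 and -0.33, and they overlap for Psmd12, Psmc6, Psma5, Psmb5, Psmb8 and Psmb9.

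The promoters of regulatory and core subunits were read for 2 motifs associated with proteasome genes, the antioxidant response element TGACNNNGC and the CCAAT box, and for the core of the interferon-stimulated element, GAAANNGAA. Both strands were searched from 250 bases before to 50 bases after the start of RefSeq transcripts (GRCr8), and 40 of the 44 proteasome genes proper had a window. The antioxidant response element was found in 2 of 14 regulatory windows and 3 of 12 core windows, against 12.2% of 27457 promoters. CCAAT was found in 5 of 14 regulatory windows (35.7%) and 9 of 12 core windows (75.0%), against 37.7% of all promoters. A match describes letters and not a bound site. Below are the 200 bases before the start, 5′ to 3′ in the direction of the gene and with the motifs in capitals, for the 2 subunits called when all probe sets are ranked, Psmc4 with none of the motifs and Psmd7 with CCAAT and with GAAANNGAA on the reverse strand, and for 2 of the scaffold and ATPase genes beside them, Psmd1 with the antioxidant response element and Psmc1 with CCAAT.
Psmc4, chr1:92485061-92485260, - strand: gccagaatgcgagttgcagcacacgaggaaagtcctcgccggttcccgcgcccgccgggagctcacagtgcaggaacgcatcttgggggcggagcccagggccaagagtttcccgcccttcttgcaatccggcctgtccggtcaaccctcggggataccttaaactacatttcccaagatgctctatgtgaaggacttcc
Psmd7, chr19:52411317-52411516, - strand: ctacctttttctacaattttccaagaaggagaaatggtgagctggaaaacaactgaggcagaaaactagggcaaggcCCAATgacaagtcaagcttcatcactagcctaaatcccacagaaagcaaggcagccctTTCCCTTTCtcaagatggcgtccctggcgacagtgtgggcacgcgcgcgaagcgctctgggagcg
Psmd1, chr9:94157771-94157970, + strand: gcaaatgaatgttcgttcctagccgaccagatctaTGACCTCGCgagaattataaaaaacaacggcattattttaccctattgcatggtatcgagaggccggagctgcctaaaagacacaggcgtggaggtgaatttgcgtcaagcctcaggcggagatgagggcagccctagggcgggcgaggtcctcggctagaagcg
Psmc1, chr6:125122297-125122496, + strand: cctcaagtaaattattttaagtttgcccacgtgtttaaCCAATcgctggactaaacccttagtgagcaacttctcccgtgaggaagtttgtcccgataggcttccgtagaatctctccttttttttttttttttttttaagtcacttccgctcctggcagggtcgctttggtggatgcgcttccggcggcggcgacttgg

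In the core particle, neither ring had a member that passed a test. The α rings form the gate of the barrel. Psma6, with the largest difference there, read 11.56, 11.54, 11.52 and 11.56 on the control diet and 11.35, 11.50, 11.57 and 11.45 on the HP diet. In 3 of 4 HP rats it was under all controls, and HP rat 3 was the highest of all 8. The difference was -0.08 (SE 0.05, limma adjusted p 0.527). Psma5 read 10.29, 10.33, 10.45 and 10.36 against 10.30, 10.30, 10.28 and 10.28, a difference of -0.07 (SE 0.05, limma adjusted p 0.538), or -0.04 without control rat 3. The diets overlapped, and the HP rats were the more alike (SD 0.01, against 0.07 in the control rats, n = 4 each). Psma4, Psma7 and Psma3 had differences of -0.06, -0.01 and 0.01. Without control rat 3 these were -0.02, 0.02 and -0.06, so that the last 2 changed sign. Psma1 and Psma2 were constant.

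The β rings hold the cutting sites, and their largest difference had the opposite sign. Psmb5, the subunit that cuts after hydrophobic residues, read 10.50, 10.63, 10.72 and 10.64 on the control diet and 10.62, 10.87, 10.75 and 10.72 on the HP diet. The HP rats other than HP rat 1 were at or above the highest control rat. The difference was 0.12 (SE 0.07, limma adjusted p 0.470, rank products FDR 0.119 from permutations). Psmb2, a structural β subunit, read 10.36, 10.40, 10.59 and 10.58 against 10.46, 10.45, 10.39 and 10.35. Its difference was -0.07 (SE 0.07, limma adjusted p 0.643), or -0.03 without control rat 3, with every HP rat inside or just under the range of the controls. Psmb1 and Psmb4 had -0.04 and 0.04, or -0.01 and 0.07 without control rat 3. Psmb3 and the cutting subunit Psmb7 were constant. Psmb5 and Psmb2 are shown because both carry the antioxidant response element (in capitals), which in Psmb2 overlaps a CCAAT box.
Psmb5, chr15:32047380-32047579, - strand: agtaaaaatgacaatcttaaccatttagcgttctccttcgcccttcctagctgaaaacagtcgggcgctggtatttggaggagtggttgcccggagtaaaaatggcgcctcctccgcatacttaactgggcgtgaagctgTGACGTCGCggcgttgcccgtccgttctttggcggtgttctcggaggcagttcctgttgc
Psmb2, chr5:144254858-144255057, + strand: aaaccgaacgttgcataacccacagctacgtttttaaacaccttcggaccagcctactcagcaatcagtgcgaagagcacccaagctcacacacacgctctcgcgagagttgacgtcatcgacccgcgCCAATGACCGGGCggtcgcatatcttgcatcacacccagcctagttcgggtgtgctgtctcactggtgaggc

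The immune subunits did not separate the diets. Psmb8, which takes the place of Psmb5 after interferon-γ, read 10.16, 10.40, 10.24 and 10.30 on the control diet and 10.20, 10.35, 10.26 and 10.23 on the HP diet. Psmb9, which takes the place of Psmb6, read 9.13, 9.42, 9.26 and 9.32 against 9.08, 9.28, 9.23 and 9.27. The HP rats lay within the range of the control rats for Psmb8, and HP rat 1 was just under it for Psmb9. The differences were -0.01 (SE 0.06, limma adjusted p 0.941) and -0.06 (SE 0.08, limma adjusted p 0.729). Both genes varied together from rat to rat, with r of 0.87 over 8 rats as a description. The highest rat was control rat 2 for both, whereas it was control rat 3 for the regulatory subunits. The sign for Psmb8 turned to 0.01 when the arrays were centred on the probe sets that span at least 0.05. Psmb10, the third replacement subunit, and Psme1 and Psme2, which form the interferon-inducible cap, were constant at 8.20, 10.81 and 9.90. GAAANNGAA was found in 3 of 5 immune windows, against 9.5% of all promoters, and in 3 of 12 core and 2 of 14 regulatory windows. The window of Psmb10 is shown for its 3 matches, of which 2 overlap.
Psmb10, chr19:50743293-50743492, - strand: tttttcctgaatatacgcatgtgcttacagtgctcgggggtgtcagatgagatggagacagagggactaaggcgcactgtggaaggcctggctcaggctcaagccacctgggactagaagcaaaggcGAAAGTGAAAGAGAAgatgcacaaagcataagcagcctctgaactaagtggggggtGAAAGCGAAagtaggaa

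Of the remaining genes, the inhibitor Psmf1 read 9.07, 9.28, 9.47 and 9.29 on the control diet and 9.14, 9.18, 9.23 and 9.12 on the HP diet. Its difference was -0.11 (SE 0.08, limma adjusted p 0.565), or -0.04 without control rat 3, and all HP rats lay inside the range of the controls. The activator cap Psme4 was constant. Of the chaperones that build the regulatory base, Psmd9 read 8.13, 8.17, 8.41 and 8.31 against 8.01, 8.19, 8.18 and 8.14. The difference was -0.13 (SE 0.08, limma adjusted p 0.520), or -0.08 without control rat 3, and control rat 3 was again the highest. Psmd5, of the same role, had -0.06, or 0.002 without control rat 3, and Psmd10 was constant. Psmg3, which helps to build the α ring, read 7.89, 7.93, 7.94 and 7.96 against 7.88, 8.03, 8.04 and 8.09, a difference of 0.07 (SE 0.07, limma adjusted p 0.644). In 3 of 4 HP rats it was above all controls. Psmg1, Psmg2 and Psmg4 were constant.

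A score for each rat, the mean deviation of a group's genes from their means over the 8 rats (log2), showed the groups side by side. The regulatory score was -0.02, 0.01, 0.22 and 0.06 in control rats 1 to 4 and -0.08, -0.06, -0.04 and -0.08 in HP rats 1 to 4. Every HP rat lay below every control rat, by little in the case of control rat 1. The control rats averaged 0.07 ± 0.11 and the HP rats -0.07 ± 0.02 (SD, n = 4 each). The core score was -0.05, -0.03, 0.06 and 0.06 against -0.02, -0.00, -0.02 and 0.00, so that the HP rats lay between the control rats. The regulatory score minus the core score was 0.03, 0.04, 0.16 and -0.00 on the control diet and -0.06, -0.06, -0.03 and -0.08 on the HP diet. The diets did not overlap, with control rat 3 included or not. Scores over all genes stayed within 0.02 of 0. The scores were made from genes chosen with results of these rats known and carry no p.

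**Figure D4:**
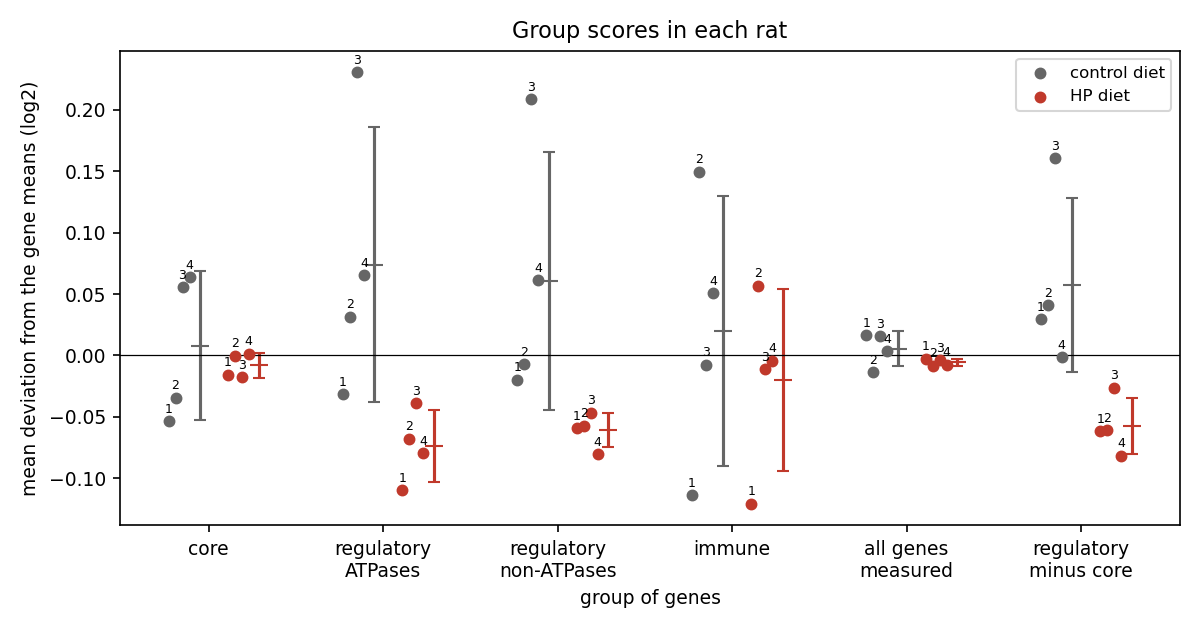
Mean deviation (log2) of the measured genes of each group in each rat, with replicate numbers and, beside them, the mean and 1 SD of 4 rats. The core scores of the HP rats lie between those of the control rats, while the HP rats lie beneath the whole control range for both kinds of regulatory subunit and for the regulatory score minus the core score.

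The regulatory subunits also moved together from rat to rat. The median Pearson's r over their 91 pairs was 0.78 across 8 rats and 0.67 after each diet's mean was taken out, with 88 of 91 pairs positive in both cases. The median was 0.26 and 0.58 for the core subunits and 0.50 and 0.61 between core and regulatory subunits. The immune subunits shared less with the regulatory subunits, at 0.21 and 0.08. Over pairs of all genes the median was 0.01 in both cases. These values describe 8 arrays that all pairs share. Control rat 3, the highest for all 14 regulatory subunits, enters every pair, and r was not computed without it.

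Proteins that work on the proteasome but have other names were next. Of 10 such genes named on the array, 4 were measured and 2 were called lower by rank products, against 9.86% of all genes. Usp14, a deubiquitinase held on the regulatory particle, had a difference of -0.14 (SE 0.07), or -0.08 without control rat 3, with 9.69, 9.66, 9.95 and 9.72 on the control diet and 9.63, 9.64, 9.65 and 9.54 on the HP diet. Ecpas, an adaptor that binds the assembled proteasome, had -0.17 (SE 0.08), with 7.15, 7.11, 7.18 and 7.15 against 7.00, 7.01, 6.99 and 6.90. The diets did not overlap for either gene (HP below control in 3.53% of all genes), and 0 passed limma at an unadjusted p under 0.05. The other two, Zfand5 and Txnl1, had 0.09 and -0.01.

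The steps before the proteasome varied. Of 10 measured shuttles and parts of the segregase, which pulls ubiquitin-tagged proteins out of complexes and membranes, 8 had a negative difference, with a median of -0.10. Ufd1, a cofactor of the segregase ATPase Vcp, was called lower by rank products at -0.19 (SE 0.07, limma p 0.0184, limma adjusted p 0.333). It was the only 1 of the 10 called, against 9.86% of all genes called lower. Vcp itself had -0.12 (SE 0.04, limma p 0.0249, limma adjusted p 0.351) and was not called. The diets did not overlap for Ufd1, Vcp and Rad23b, a ubiquitin carrier (3 of 10, against 3.53% of all genes). The list's score was highest in control rat 3, at 0.12, and its median without that rat was -0.07. Of 8 measured genes for ubiquitin, its activation and its conjugation, 6 were negative (median -0.06) and 0 were called, with Ube2n and Ube2g2 at -0.19 and -0.13. For 1 of these 8, Ube2k at -0.06, the diets did not overlap, against 3.53% of all genes. Of 8 measured cullin ligase and COP9 signalosome genes, 4 were negative (median 0.01) and 0 were called, with Gps1 and Cops8 at -0.16 and 0.08. Of 9 measured deubiquitinases, 5 were negative (median -0.07) and 2 were called lower by rank products, against 9.86% of all genes. These were Usp2, whose level follows the circadian clock, at -0.76 (SE 0.25, limma p 0.0150, limma adjusted p 0.332) and Usp1 at -0.24 (SE 0.11, limma p 0.0597, limma adjusted p 0.407), and the diets overlapped for both. Usp7 had -0.14 (SE 0.05, limma p 0.0223, limma adjusted p 0.339), and its diets did not overlap (1 of 9, against 3.53% of all genes).

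Chaperone and stress genes had a median of -0.13, with 8 of 8 measured genes negative, against 54.7% of all genes, and 2 called lower by rank products, against 9.86%. Without control rat 3 the median was -0.10 and 7 of 8 were negative. Their score was -0.02, 0.05, 0.14 and 0.10 on the control diet and -0.05, -0.08, -0.08 and -0.06 on the HP diet, and so it was highest in control rat 3 and did not overlap, as with the regulatory subunits. Hspa4, a partner of the heat shock protein Hspa8 family, had -0.32 (SE 0.09), and Hmox1, which breaks down heme, had -0.18 (SE 0.09). Sqstm1, the receptor that takes ubiquitin-tagged cargo to autophagy, had -0.15 (SE 0.06) with a limma p of 0.0406 and a limma adjusted p of 0.384. Among the regulators of proteasome genes, 4 were measured, 2 were negative and 0 were called. Stat3 had -0.20 (SE 0.11, limma adjusted p 0.47). Nfe2l2, which binds the antioxidant response element, had 0.13 (SE 0.15, limma adjusted p 0.71), and the diets overlapped for both. Nfe2l1, known for raising proteasome genes when the proteasome is blocked, was constant. The interferon-responsive and antigen presentation genes, 17 of them measured, had 7 negative differences and a median of 0.03. Of these 17, 1 was called, Ifit2, which was higher at 0.24 (SE 0.11), against 8.48% of all genes called higher. Their score was -0.10, -0.02, -0.00 and 0.09 on the control diet and -0.02, -0.01, 0.01 and 0.04 on the HP diet.

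**Figure D5:**
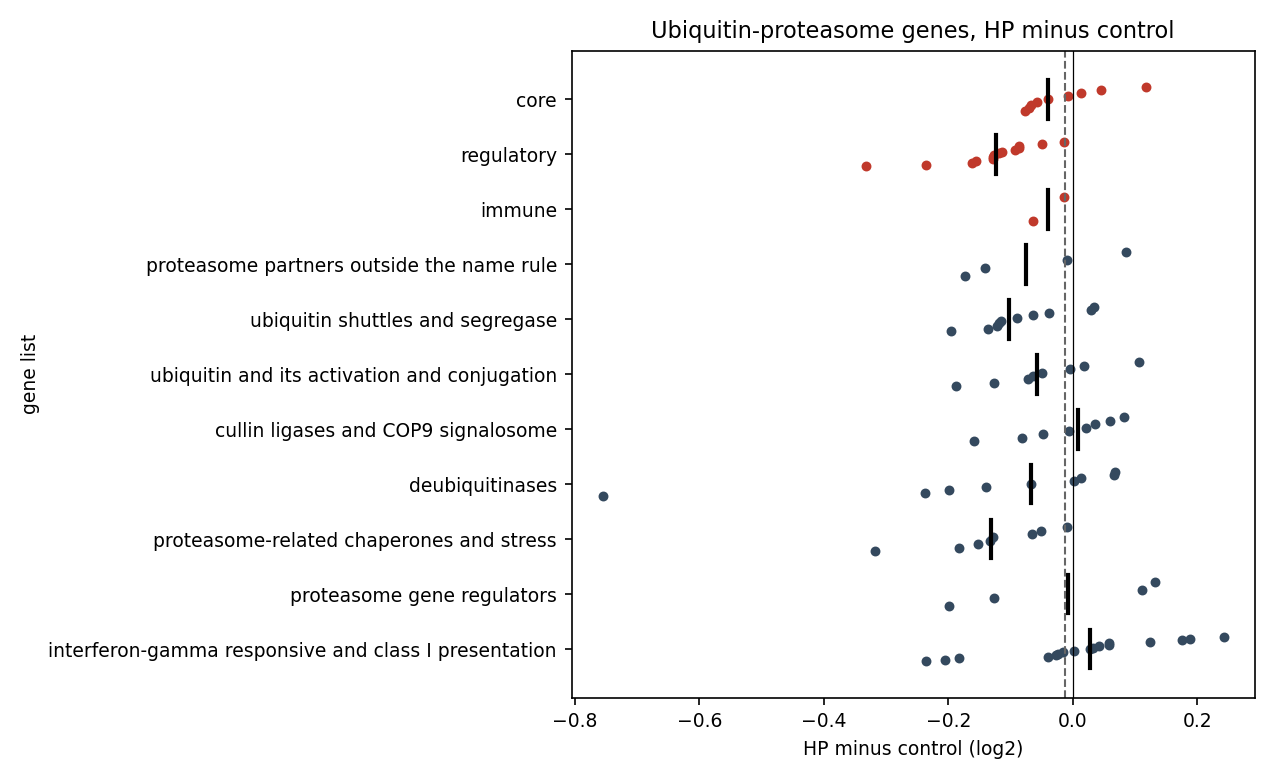
The difference between the diets (HP minus control, log2) for each measured gene of the core, regulatory and immune subunits (red) and of 8 lists around them (dark), with the list's median as a black bar and the median of all genes, -0.01, as a dashed line. The lowest list medians are those of the chaperone and stress genes at -0.13 and the regulatory subunits at -0.12.

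Markers of liver cell types were read beside these values. Sums of linear levels over a marker list are ruled by its brightest probe sets. The liver marker Apob stood at 13.33 to 13.40 over the rats, and Alb and Ttr were constant. Of 6 measured hepatocyte markers, 4 were negative (median -0.07). Rank products called 2 of the 6 lower, Tat at -0.81 and Cps1 at -0.27, against 9.86% of all genes. Their summed linear level ran from 35923 to 38945 on the control diet and from 33978 to 37866 on the HP diet. Their score was 0.07, 0.08, 0.21 and 0.04 in control rats 1 to 4 and -0.17, -0.14, -0.02 and -0.06 in HP rats 1 to 4. Like the regulatory score, it was highest in control rat 3 and did not overlap between the diets. That mean gives most weight to Tat, which moved most. Tat and Cps1 were the 2 of 6 markers highest in that rat. For these alone the diets did not overlap (HP below control in 3.53% of all genes). Apoa1 and Cyp2e1 had differences of 0.02 each. Of 10 measured Kupffer cell and macrophage markers, 1 was called lower, Cd5l, against 9.86% of all genes. These markers were negative in 10 of 10 cases (median -0.09), with sums of 5965 to 7074 and 5910 to 6450. That score was lowest in control rat 3 among the control rats, at -0.11. Of 9 sinusoidal endothelium markers, 4 were measured and all 4 were positive (median 0.19), with sums of 2960 to 3331 and 3295 to 3676. Rank products called 2 of the 4 higher, Kdr and Stab2, against 8.48% of all genes. Stellate cell markers had a median of 0.05 over 7 genes, with sums of 2796 to 3427 and 2918 to 3361. Of 15 leukocyte markers, 2 were measured (median -0.03, sums of 321 to 405 and 344 to 371), and the defining Ptprc and Cd3e were constant. Of the erythroid markers, 1 was measured, Hbb, at 0.24 (linear level 2102 to 3198 against 2667 to 3126). Hbb was called higher, as were 8.48% of all genes. The part of these cell types in the proteasome values was not tested.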

How the data were processed

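Liver total RNA of 8 rats, 4 per diet, was hybridised to Affymetrix rat arrays. The deposited values are log2 values, which the authors obtained by summarising the probes of each probe set with FARMS in R 2.13.1 (per the labels). Probe sets whose probes share no signal come out of FARMS nearly constant. How arrays were normalized against each other is not given in the sources used, and none was added. Probe sets with 1 symbol in the platform annotation were named. No detection values were used, and precision is limited by the number of arrays.

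Rank products were computed over all 31099 probe sets and all 16 HP minus control array differences with 1000 permutations (Python 3.11.15, numpy 2.4.6, pandas 2.3.3), with an FDR under 0.05. Alternative runs of rank products used 200 permutations, and fewer array differences where a rat was left out. Limma 3.58.1 (R 4.3.3, trend and robust) was fitted over 4155 probe sets that span at least 0.05 and are no controls, with Benjamini-Hochberg adjustment, two-sided. Both were also run on simulated arrays with independent errors for each probe set, whereas the regulatory subunits here moved together. Groups came from the labels. Members and lists (8 of the pathway, 6 of cell markers) were chosen with earlier results of these data known. Values in every rat are given for members that were called, that passed limma unadjusted or did not overlap, for the measured immune subunits and for the 2 largest differences of each group. Alternatives were other scalings, filters and limma settings, another ranking, other probe set rules, the replicate block and each rat left out. Figures used matplotlib 3.10.9. A comparison of protein sequences was not done here.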

Additional observations from a re-analysis of the deposited data

How the results depend on the processing

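The regulatory median stayed negative under all settings run, with extremes of -0.17 (control rat 1 left out) and -0.07 (control rat 3 left out). The core median ran from -0.07 to -0.02 with each rat left out, and the immune median from -0.08 to 0.00. With quantile normalization the core and regulatory medians were -0.02 and -0.11, against -0.003 over all genes. With the arrays centred they were -0.02 and -0.10, against 0.0075. With no span filter the immune median was 0.0001 and the core median -0.00, since constant genes enter. Rank products called 0 members lower when ranked over the spanning probe sets and 0 to 3 with 1 rat left out: 0 without control rat 3, only Psmd7 without each of control rats 1, 2 and 4, and Psmd12 or Psmc6 in addition without HP rat 1 or 4. It called 0 members higher throughout. Over all 2808 genes it called 33 lower without control rat 3 and 43 to 127 without another control rat. With 1 HP rat left out it called 232 to 290. At an unadjusted limma p, 5 members were lower with array weights and 1 to 10 with 1 rat left out (10 without control rat 1, and 1 without control rat 4, HP rat 2 or HP rat 3), and 0 to 1 were higher (1, Psmb5, without HP rat 1). HP rats lay below all controls for 2 to 9 members (9 without control rat 1, 5 without HP rat 3) and above them for 0 to 2 (2 without HP rat 1). The shares of all genes with such a limma p or such a gap were not computed in these alternatives. With 3 rats on a diet, a gap between the diets is easier to reach for any gene. No setting gave a call at a limma adjusted p under 0.05.

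The sign turned for Psmb8 among the 13 members with values in every rat, to 0.006 with arrays centred and over a range of -0.0539 to 0.0269 with 1 rat left out, and for no other of the 13 in 207 alternative values. Psmd11, outside these, turned when the arrays were centred and without control rat 2 or 3, and Psmd5 turned without control rat 3. Of the core subunits, Psma3 turned without control rat 2, control rat 3 or HP rat 1. Psma7 turned without control rat 3, control rat 4 or HP rat 1, and with the arrays centred. Over the settings, 5 to 7 of 9 core subunits were negative. The replicate numbers were not taken as pairs. Same-numbered deviations correlated at 0.48, 0.03, -0.12 and -0.20, and those of control rat 3 and HP rat 4 at 0.51. Such values cannot show whether rats were handled in pairs. With the replicate block, 2 members were lower at an unadjusted limma p and the medians were -0.04, -0.12 and -0.04 for core, regulatory and immune subunits, and no adjusted call changed. The share of all genes at that unadjusted p was not computed with the block.

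With 4 rats per diet, a member that misses a threshold is not shown to be alike on both diets, and the 17 constant genes give no difference to measure.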
